A study of Rattus norvegicus with 6 samples.

Results

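The matrix metalloproteinases Mmp2 and Mmp14 and the tissue inhibitors Timp1, Timp2 and Timp3 were examined in diaphragm of diabetic and normal rats. Members were all probe sets (groups of short probes that together measure a transcript) that the platform annotation gives to exactly 1 of these 5 genes. This rule found 10 of the 15923 probe sets on the array, 3 for the proteases and 7 for the inhibitors. Diabetic rats (n = 3) were male Wistar rats injected at 8 weeks of age with 60 mg/kg streptozotocin, which destroys insulin-producing cells. Normal rats (n = 3) of the same strain, sex and age were given the buffer. The left costal hemidiaphragm was taken 4 weeks later after an overnight fast, with no insulin or other treatment of the diabetes, and each rat had 1 Affymetrix RAE 230A array. Values are MAS 5.0 signals, a linear intensity that the software scales per array, and they cannot be ranked between genes because probe sets differ in brightness.

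Metalloproteinases are zinc-dependent enzymes that cut collagens, laminins and other proteins of the extracellular matrix. Mmp2 (gelatinase A) is secreted as an inactive proenzyme, and Mmp14 (membrane type 1 metalloproteinase) is anchored in the plasma membrane, where it cuts fibrillar collagen and activates pro-Mmp2. The tissue inhibitors bind the active site. Timp2 also bridges pro-Mmp2 to Mmp14 during activation, Timp3 is held in the matrix and additionally blocks several ADAM-type proteases, and Timp1 is a poor inhibitor of Mmp14. In skeletal muscle this system is known for turnover of the sheath around the fibres.

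The 6 arrays had median signals of 167 to 180. Pairwise correlations of log2 signals lay between 0.961 and 0.972 among diabetic arrays, 0.954 and 0.973 among normal arrays and 0.901 and 0.958 between the groups. The spiked bacterial transcripts stood apart on diabetic replicate 3, with a median of 1.94 times each one's geometric mean over the arrays, against 0.741 to 1.01 on the other arrays. All 18 listed genes of the skeletal muscle fibre lay above the filter on mean signal (105.8), whereas 0 of 8 liver genes did. With limma's moderated test and Benjamini-Hochberg adjustment over the 9519 probe sets above this filter, 6.78% passed at an adjusted p under 0.05, 3.3% of all higher and 3.48% lower in diabetic muscle.

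Of the 10 member probe sets, 8 lay above the filter, and 1 of these passed the test, that of Mmp2, which was lower in diabetic diaphragm. No member probe set was higher at this threshold by limma, although 4 of the 8, in both directions, had an unadjusted p under 0.05, against 23.9% of all tested probe sets. At an adjusted p under 0.1 there were 2 of the 8, with the second probe set of Timp3 higher (5.9% of all were higher) and Mmp2 lower (6.15% of all were lower). Groups did not overlap for 3 of the 8, a state found for 29.6% of all tested probe sets. The median log2 difference of the 5 genes, each represented by its brightest probe set, was -0.18, beside 0.01 over all 7080 tested genes, and of these genes 7.01% passed, 3.46% higher and 3.55% lower. The members thus gave mixed directions, with Mmp2, Timp1 and Timp2 below 0 and Mmp14 and Timp3 above 0.

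**Figure D1:**
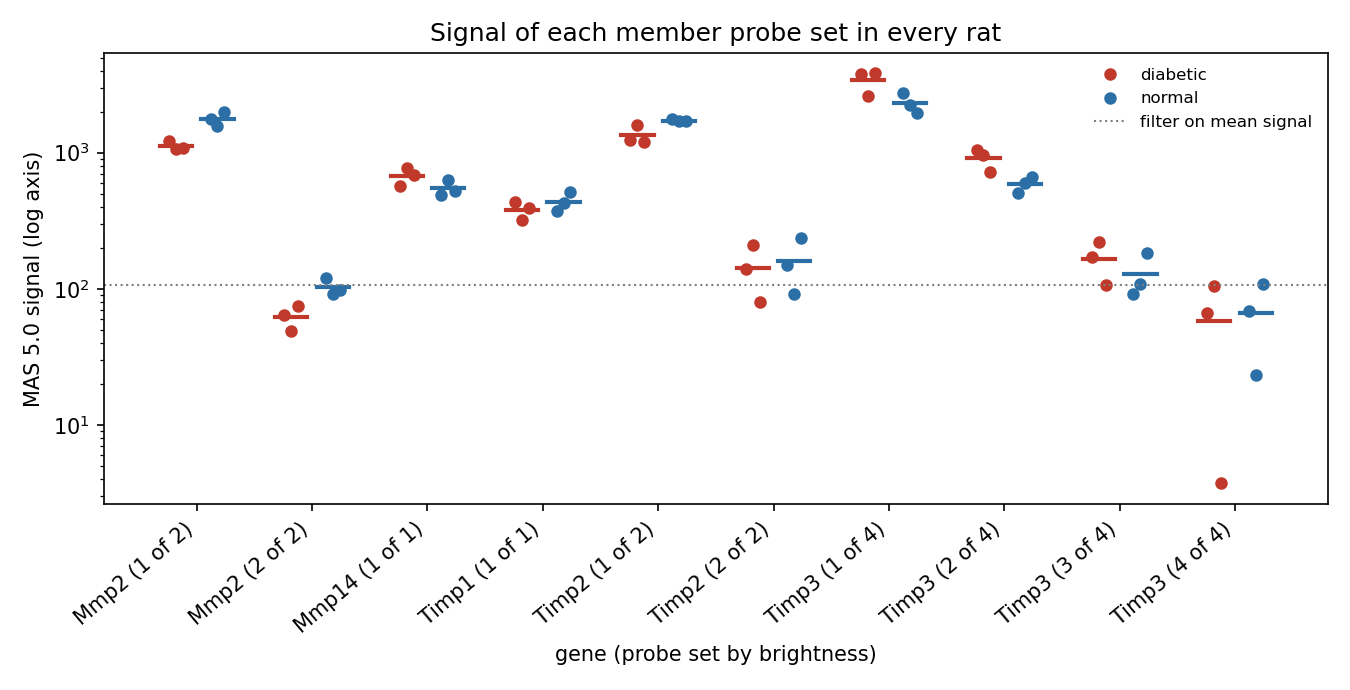
MAS 5.0 signal, on a log axis, of the 10 member probe sets in 3 diabetic (red) and 3 normal (blue) rats. Points are rats, bars are group means, probe sets of a gene run in order of brightness, and the dotted line is the filter at 105.8. All diabetic signals of both Mmp2 probe sets lie below all normal ones.

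Among the proteases, Mmp2 was the gene that passed the test. Its brighter probe set (1370301_at) had signals of 1215, 1070.4 and 1082 in diabetic replicates 1, 2 and 3, against 1768, 1560.4 and 1978 in normal replicates 1, 2 and 3. The 3 diabetic values lay close together and all fell under the lowest normal value. The mean was 1123 ± 80.4 (SD, n = 3) in diabetic and 1769 ± 209 (SD, n = 3) in normal diaphragm, a fold of 1.58 lower. On the log2 scale it fell by 0.65 (standard error 0.15, 95% interval -0.99 to -0.31, adjusted p = 0.032 from limma). In whole muscle, fewer cells of a type and less RNA per cell cannot be told apart. The second Mmp2 probe set (1369825_at) was dim and below the filter, at 64.2, 48.7 and 74.3 in diabetic and 120, 91.8 and 97.4 in normal replicates 1 to 3. It was not tested in the fit, and its groups did not overlap either, with a fold of 1.65 between the means in the same direction. The Mmp2 call was close to the threshold. When single arrays were dropped it passed 1 of 6 times, without normal replicate 2 (adjusted p = 0.040), and the highest adjusted p of the 6 was 0.10, while the log2 difference stayed between -0.74 and -0.57. Without diabetic replicate 3, the array with the high spike-in signals, the adjusted p was 0.086.

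Mmp14, the activator of pro-Mmp2, had 1 probe set (1367860_a_at). Its signals were 570.4, 775 and 683 in diabetic replicates 1 to 3 and 487, 634 and 520 in normal replicates 1 to 3. The groups overlapped, because diabetic replicate 1 lay below normal replicate 2. The mean was 676 ± 102 (SD, n = 3) in diabetic and 547 ± 77.2 (SD, n = 3) in normal muscle. The log2 difference of 0.30 (standard error 0.18, 95% interval -0.09 to 0.70) did not pass (adjusted p = 0.33 from limma). The interval allows a ratio of 0.938 to 1.63.

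Timp1, the inhibitor best known for its induction in injured tissue, had 1 probe set (1367712_at). Signals were 436, 321 and 389.7 in diabetic replicates 1 to 3, against 370.1, 423 and 511 in normal replicates 1 to 3. Values of both groups were mixed in order, with the lowest in a diabetic and the highest in a normal rat. Means were 382 ± 57.8 (SD, n = 3) in diabetic and 435 ± 71.2 (SD, n = 3) in normal muscle (log2 difference -0.18, standard error 0.19, adjusted p = 0.61 from limma). The 95% interval of the log2 difference, -0.60 to 0.24, covers ratios from 0.658 to 1.18.

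Timp2, the partner of Mmp14 in pro-Mmp2 activation, was lower in each diabetic rat on its brighter probe set (1386940_at) but did not pass. Diabetic replicates 1 to 3 had signals of 1241, 1596 and 1204, and normal replicates 1 to 3 had 1765, 1702 and 1696. The coefficient of variation was 16.1% among diabetic rats, of which replicate 2 came near the normal level, and 2.21% among normal rats, whose values were nearly equal. The mean was 1347 ± 216 (SD, n = 3) in diabetic and 1721 ± 38.1 (SD, n = 3) in normal diaphragm (log2 difference -0.37, standard error 0.16, 95% interval -0.71 to -0.02, adjusted p = 0.19 from limma). The dimmer probe set (1367823_at) had signals of 139, 210.1 and 79.4 in diabetic and 149, 92.0 and 236 in normal replicates 1 to 3, with a log2 difference of -0.16 (adjusted p = 0.85). Its groups overlapped widely, and its difference turned to 0.21 without diabetic replicate 3 and to 0.18 without normal replicate 3.

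Timp3, the matrix-bound inhibitor, had 4 probe sets, of which the 3 above the filter had log2 differences above 0 and did not pass. The brightest (1389836_a_at) had signals of 3820.3, 2609 and 3822 in diabetic replicates 1 to 3, against 2730.4, 2244 and 1961 in normal replicates 1 to 3. Diabetic replicates 1 and 3 were nearly equal and above all normal rats, but diabetic replicate 2 lay under normal replicate 1. Means were 3417 ± 700.0 (SD, n = 3) in diabetic and 2312 ± 389 (SD, n = 3) in normal muscle, a ratio of 1.48 (log2 difference 0.55, standard error 0.19, 95% interval 0.13 to 0.98, adjusted p = 0.12 from limma). The second probe set (1375138_at) had signals of 1051, 968 and 726 in diabetic and 504, 602 and 665 in normal replicates 1 to 3. Here every diabetic rat was above every normal rat, and the ratio of means was 1.55 (log2 difference 0.62, standard error 0.19, adjusted p = 0.076 from limma). It passed when arrays were weighted by quality (adjusted p = 0.031), and with each array left out its adjusted p ranged from 0.055 to 0.22. The order of rats differed between these probe sets, since diabetic replicate 3 was the highest on the first and the lowest diabetic rat on the second. The third (1372926_at) was dim, with means of 166 ± 57.1 (SD, n = 3) in diabetic and 127 ± 48.1 (SD, n = 3) in normal muscle (log2 difference 0.39, adjusted p = 0.54). The fourth (1368989_at) lay below the filter, from 3.7 to 105 in diabetic and from 23.4 to 108 in normal rats, and ran the other way, with a log2 difference of -0.92 and overlapping groups.

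**Figure D2:**
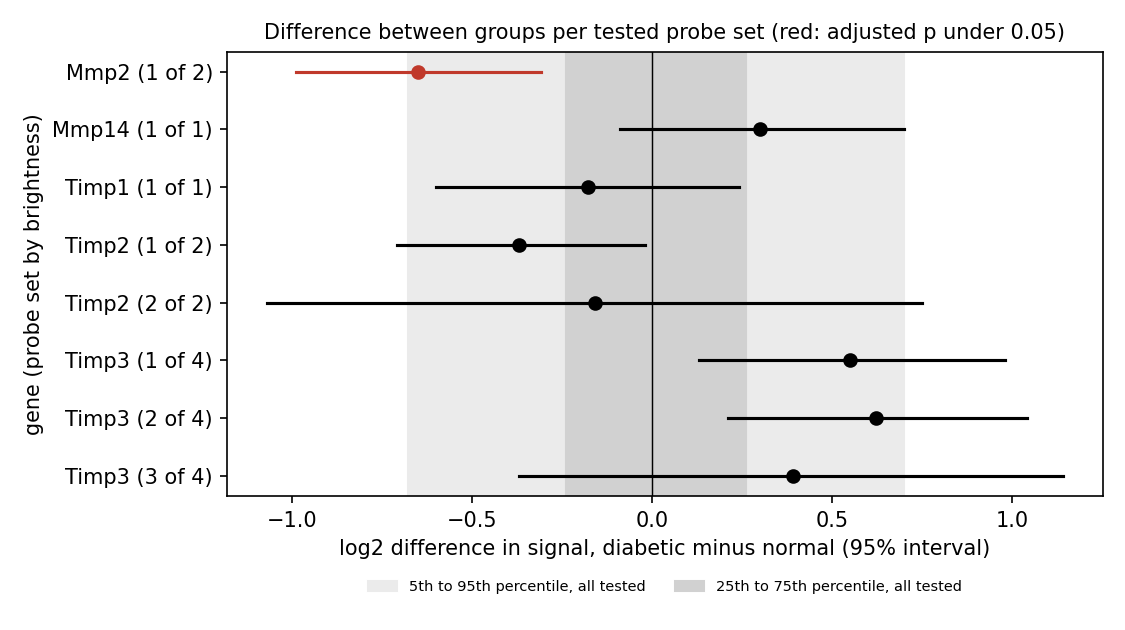
Log2 difference in signal, diabetic minus normal, with its 95% interval from limma for the 8 tested member probe sets, in order of brightness within a gene. Bands are percentiles of all 9519 tested probe sets (5th to 95th, -0.68 to 0.70; 25th to 75th, -0.24 to 0.26), and Mmp2, in red, is the probe set that passed.

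Promoter sequences are shown for Timp1, Timp2 and Timp3, so that the inhibitors can be compared. RefSeq (GRCr8) entries were matched for 3 of the 5 genes, each from 250 bases before to 50 bases after the start of the gene, 5′ to 3′ on the minus strand, on which all 3 genes lie. Capitals mark matches, on either strand, to GGGCGG (the GC box of Sp1-type factors), TGANTCA (the AP-1 element), TGAGTAA (a variant of it), CCAAT or TATAAA. No matches overlapped each other.
Timp1, chrX:3771073-3771372: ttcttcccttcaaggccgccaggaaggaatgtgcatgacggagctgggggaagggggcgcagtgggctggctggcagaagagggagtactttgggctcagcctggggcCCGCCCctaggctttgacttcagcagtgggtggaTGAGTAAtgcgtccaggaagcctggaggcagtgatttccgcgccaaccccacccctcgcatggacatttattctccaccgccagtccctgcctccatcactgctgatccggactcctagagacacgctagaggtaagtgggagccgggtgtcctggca
Timp2, chr10:104089165-104089464: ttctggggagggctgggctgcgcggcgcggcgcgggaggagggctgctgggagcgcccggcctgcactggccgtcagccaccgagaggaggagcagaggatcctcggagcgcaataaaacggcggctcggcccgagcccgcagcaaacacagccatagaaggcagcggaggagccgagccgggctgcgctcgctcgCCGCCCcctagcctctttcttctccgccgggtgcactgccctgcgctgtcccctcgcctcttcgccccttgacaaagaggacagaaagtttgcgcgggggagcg
Timp3, chr7:19459509-19459808: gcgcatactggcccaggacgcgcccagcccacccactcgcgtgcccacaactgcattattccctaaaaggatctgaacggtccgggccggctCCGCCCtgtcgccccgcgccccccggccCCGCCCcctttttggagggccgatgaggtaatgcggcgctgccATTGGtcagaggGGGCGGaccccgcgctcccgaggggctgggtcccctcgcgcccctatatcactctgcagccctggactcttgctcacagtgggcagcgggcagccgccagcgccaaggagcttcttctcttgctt
The GC box occurred at 3 places in Timp3, beginning 158, 130 and 75 bases before the start, and at 1 place each in Timp1 (142 bases before) and Timp2 (54 bases before), and 33.1% of all 33469 rat promoters of this length hold it. TGAGTAA, found in 2.9% of promoters, began 108 bases before the start of Timp1. Timp3 had a CCAAT box 87 bases before its start, as 37.5% of promoters hold. None of the 3 windows held TGANTCA or TATAAA, which are in 7.33% and 14.2% of promoters. GC content was 61.3% in Timp1, 70.3% in Timp2 and 68.7% in Timp3. Such matches are letters in a window and were not tested as binding sites.

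Proteases were then compared with inhibitors through the log2 ratio of a protease to an inhibitor within each array, taken from the brightest probe sets and centred on the normal mean. The ratio of Mmp2 to Timp3 had the largest difference of the 6 pairs, at -1.27, -0.91 and -1.44 in diabetic replicates 1 to 3, against -0.25, -0.14 and 0.39 in normal replicates 1 to 3. All diabetic rats lay below all normal rats, the mean difference was -1.21 (95% interval -1.91 to -0.50), and the ratio was lower by a fold of 2.31. Mmp2 over Timp1 was also lower in every diabetic rat, by a mean log2 difference of -0.47 (95% interval -0.87 to -0.07). For Mmp14 over Timp2 the sign was the opposite, with every diabetic rat above every normal rat and a mean log2 difference of 0.67 (95% interval 0.24 to 1.10). These 3 pairs had a two-sided exact permutation p of 0.1, the smallest that 3 arrays against 3 can give, and 0.2 after Benjamini-Hochberg adjustment over the 6 pairs. The pairs share genes and are not independent. Their 95% intervals are t intervals from the pooled spread of both groups. They are not adjusted over the 6 pairs and do not come from the permutation test. For Mmp2 over Timp2 the log2 difference was -0.29 (95% interval -0.82 to 0.25, exact permutation p = 0.2), for Mmp14 over Timp1 it was 0.49 (-0.35 to 1.33, exact permutation p = 0.3), and for Mmp14 over Timp3 it was -0.25 (-1.26 to 0.76, exact permutation p = 0.7). The mean log2 signal of both proteases minus that of the 3 inhibitors, centred in the same way, was -0.33, 0.01 and -0.21 in diabetic and -0.10, 0.05 and 0.05 in normal replicates 1 to 3. The groups overlapped on this scale, and the difference of -0.18 was about as large as the spread among diabetic rats (SD 0.17), since the members within each class differed in sign.

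**Figure D3:**
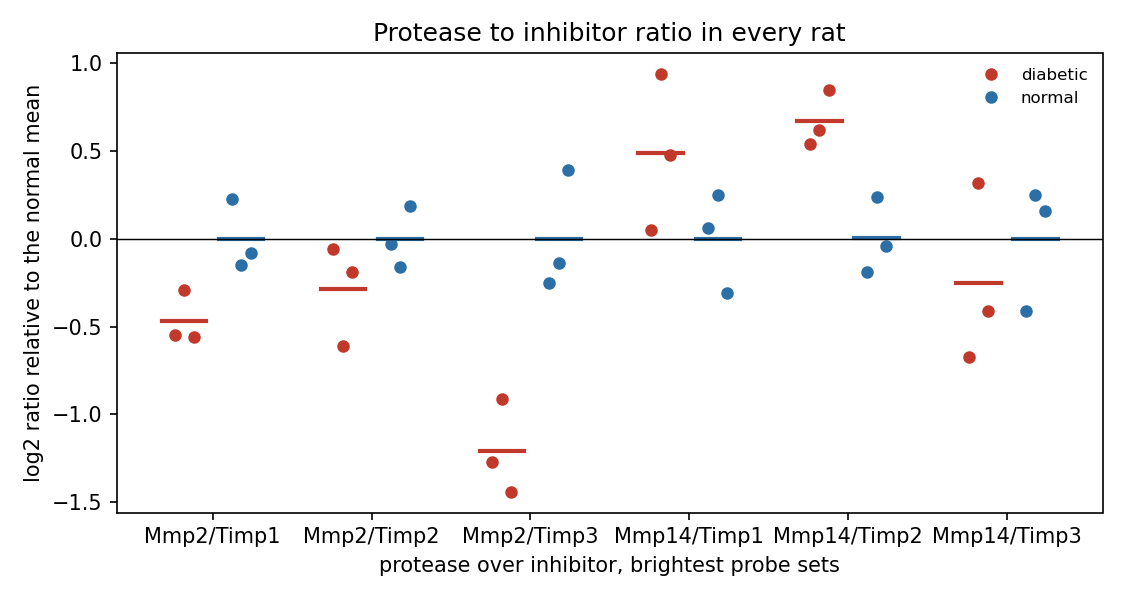
Log2 ratio of protease to inhibitor signal in each diabetic (red) and normal (blue) rat, relative to the normal mean, for the 6 pairs of brightest probe sets. Points are rats and bars group means. Mmp2 over Timp3 has the mean farthest from the normal level, at -1.21.

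**Figure D4:**
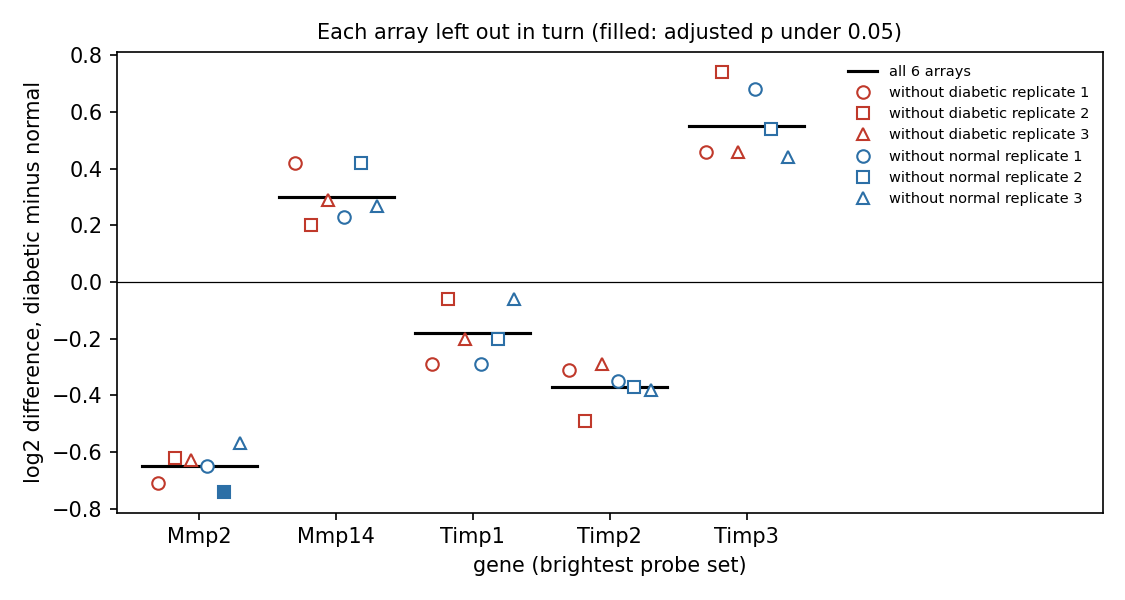
Log2 difference, diabetic minus normal, for the brightest probe set of each gene from all 6 arrays (black line) and after dropping each array (points). Filled points passed at an adjusted p under 0.05, which was the case for Mmp2 without normal replicate 2, and no gene changed sign.

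Of 20 further metalloproteinase genes, 12 were named on the array and 3 lay above the filter. Mmp23, a metalloproteinase with a short transmembrane anchor, was lower at 106 ± 24.4 (SD, n = 3) in diabetic and 219 ± 45.1 (SD, n = 3) in normal muscle (log2 difference -1.05, standard error 0.26, adjusted p = 0.042 from limma), a call that was lost with any 1 array left out (highest adjusted p = 0.13). Mmp24 and Mmp17, both membrane-type enzymes, had log2 differences of -0.31 and -0.12 and did not pass. The collagenases Mmp8 and Mmp13, the stromelysins Mmp3 and Mmp10, and Mmp7, Mmp9, Mmp11, Mmp12 and Mmp16 were below the filter, with mean signals from 7.5 to 58.5, and were not tested. Among 7 tested ADAM and ADAMTS genes 1 was higher and 0 were lower by limma. This was Adamts1, which cuts proteoglycans such as aggrecan and versican, at 753 ± 311 (SD, n = 3) in diabetic and 307 ± 89.7 (SD, n = 3) in normal muscle, a ratio of 2.45 (adjusted p = 0.029). Adamts1 passed 2 of 6 times when single arrays were dropped, and its ratio was 1.88 without diabetic replicate 3, its highest rat. Adam17 and Adam19, which release membrane-bound proteins, had means of 552 and 265 in diabetic and 551 and 305 in normal muscle and did not pass. Adamts9 had a log2 difference of -0.72 and did not pass either (adjusted p = 0.074 from limma). Of the 7 genes, 6 had log2 differences below 0, and the median was -0.14.

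Of 5 other tested genes of inhibitors and related serpins, 1 was higher, 2 were lower and 2 did not pass. Reck, a membrane-anchored inhibitor of metalloproteinases that include Mmp2 and Mmp14, had signals of 1281, 1471 and 859.8 in diabetic and 588, 798 and 484.5 in normal replicates 1 to 3. All diabetic rats were above all normal rats, and the mean was 1204 ± 313 (SD, n = 3) in diabetic and 623 ± 160.0 (SD, n = 3) in normal muscle (log2 difference 0.94, standard error 0.24, adjusted p = 0.043 from limma). Reck passed 2 of 6 times when single arrays were dropped (highest adjusted p = 0.14). Serpine2, an inhibitor of plasminogen activators and thrombin, was lower at 501 ± 58.3 (SD, n = 3) in diabetic and 928 ± 183 (SD, n = 3) in normal muscle (adjusted p = 0.021). Serpinf1 was lower at 1860.0 ± 384 (SD, n = 3) in diabetic and 3236 ± 320.0 (SD, n = 3) in normal muscle (adjusted p = 0.025); its product, pigment epithelium-derived factor, belongs to the serpin family but is not known to inhibit proteases. Serpine2 passed 2 and Serpinf1 1 of 6 times on dropping an array. Cst3, the cysteine protease inhibitor cystatin C, and the complement inhibitor Serping1 had log2 differences of 0.40 and 0.07 and did not pass.

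Of 14 tested genes of activation, cell surface binding and clearance, 2 were lower and 12 did not pass by limma, of which 4 had log2 differences above 0. Pcolce, the enhancer of procollagen C-proteinase, was lower by a fold of 2.92, at 247 ± 35.8 (SD, n = 3) in diabetic and 722 ± 126 (SD, n = 3) in normal muscle (adjusted p = 0.0019). This gene had been selected by the study on the same arrays. Pcsk6, a proprotein convertase of the furin family, was lower at 443 ± 14.0 (SD, n = 3) in diabetic and 807 ± 86.9 (SD, n = 3) in normal muscle (log2 difference -0.86, standard error 0.16, adjusted p = 0.011), and both passed with each array left out. Furin itself, the convertase that removes the propeptide of Mmp14, was chosen after its values were seen and had 571 ± 67.2 (SD, n = 3) in diabetic and 400.0 ± 47.4 (SD, n = 3) in normal muscle (log2 difference 0.51, standard error 0.17, adjusted p = 0.10). Bsg, a surface glycoprotein that induces metalloproteinases in neighbouring cells, and Cav1, the caveolar coat protein, had log2 differences of -0.37 and -0.43 and did not pass. All diabetic rats lay below all normal rats for both, a state found for 14.4% of all tested probe sets. The second probe set of Cav1 had a log2 difference of -0.05.

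The substrates were the list with the most calls. By limma 15 of 29 tested genes were lower and 14 did not pass, with 26 differences below 0, and the median log2 difference was -0.77. The study had selected 6 of them on these arrays, and its direction is therefore no independent evidence; without those, 9 of 23 were lower with a median of -0.59. Col15a1, of the basement membrane zone, was lower by a fold of 4.37, at 498 ± 182 (SD, n = 3) in diabetic and 2175 ± 267 (SD, n = 3) in normal muscle, and the fibrillar collagens Col3a1, Col1a1 and Col1a2 by folds of 3.69, 3.51 and 2.91. Their adjusted p-values ranged from 0.00027 to 0.0035. Dcn, the proteoglycan decorin, and Lama2, the laminin chain of the fibre's basement membrane, had log2 differences of -0.11 and 0.27 and did not pass.

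**Figure D5:**
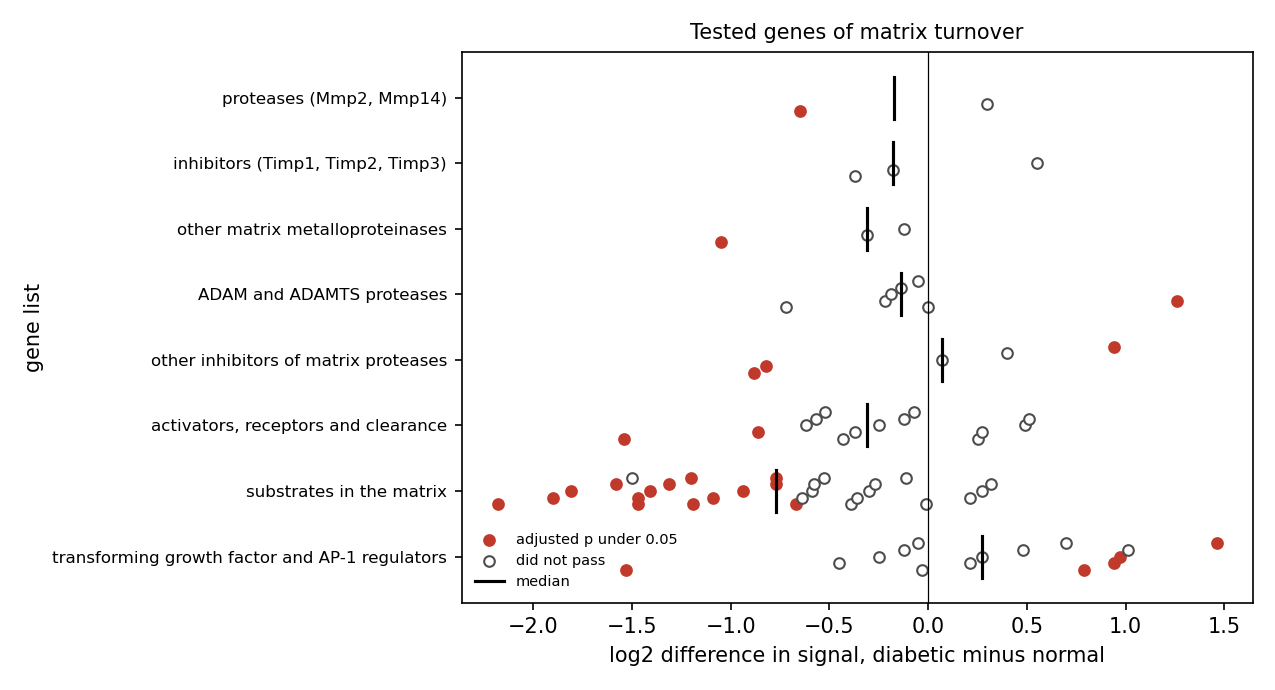
Log2 difference in signal, diabetic minus normal, for the tested genes of the proteases, inhibitors and 6 further lists, 1 point per gene by its brightest probe set. Red points passed at an adjusted p under 0.05 and black bars are medians; the median of the substrates is -0.77 and that of the inhibitors -0.18.

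Regulators of these genes were counted as well, of which 4 of 15 tested were higher, 1 was lower and 10 did not pass, and without Smad7, which the study had selected on these arrays, 3 of 14 were higher. The count of higher genes was 1 to 3 on dropping any single array, 2 with scaling to the same median and 1 with no filter. Smad3, which carries the signal of transforming growth factor beta to the nucleus, was lower at 256 ± 102 (SD, n = 3) in diabetic and 712 ± 206 (SD, n = 3) in normal muscle (adjusted p = 0.021). Smad7, which blocks that signal, had means of 160.0 ± 24.8 (SD, n = 3) in diabetic and 57.8 ± 4.43 (SD, n = 3) in normal muscle, and it cleared the filter through its diabetic arrays alone, so that its call has no weight of its own. The other probe sets of Smad7 lay below the filter, and their groups overlapped. A second probe set of Smad3 (1369528_at) was also below the filter and ran the other way, with a log2 difference of 0.97 and overlapping groups. Junb, an AP-1 subunit, was higher with a ratio of 1.93 (adjusted p = 0.039) and Egr1, a zinc finger factor induced by growth signals, with a ratio of 1.94 (adjusted p = 0.049). Ccn2, the other higher gene, had means of 2013 ± 228 (SD, n = 3) in diabetic and 1182 ± 284 (SD, n = 3) in normal muscle. Its log2 difference was 0.79 (standard error 0.2, adjusted p = 0.042 from limma). On dropping 1 array Junb passed 1, Egr1 2 and Smad3 4 of 6 times. Sp1 and Smad4 had log2 differences of 0.70 and 0.48 and did not pass.

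Fibroblasts are a source of Mmp2 and collagen in muscle. Of 12 tested fibroblast markers 5 were lower, 3 of them collagens that the study had selected, and 7 did not pass, Dcn and Gsn among them. All 12 had log2 differences below 0, with a median of -0.5. For the whole list the summed signal of the 13 named was 38351 to 40541 in diabetic and 63152 to 66458 in normal rats. Most of that sum came from genes that are also on the substrate list. Over the 8 others the sum was 16126 to 18151 in diabetic and 18899 to 21528 in normal rats, with 1 of 7 tested lower, Mfap5. The median log2 difference of these 7 was -0.34. Among them Gsn had a log2 difference of -0.05 with overlapping groups, and Pdgfra, the defining receptor, had -0.34. Neither passed. Endothelial markers gave 1 higher (Kdr) and 1 lower (Tie1) of 10, smooth muscle and pericyte markers 2 lower (Rgs5 and Acta2) of 10, and adipocyte markers 1 higher (the lipase Pnpla2, which fibres also express) of 4. Kdr, Tie1 and Acta2 passed 0 of 6 times by limma when single arrays were dropped, Pnpla2 3 times and Rgs5 6 times. Summed signals were 6819 to 7795 in diabetic and 6147 to 6701 in normal rats for endothelium, 13259 to 16532 in diabetic and 13928 to 19544 in normal rats for smooth muscle and pericytes, and 13215 to 14919 in diabetic and 7074 to 11180 in normal rats for adipocytes. Pnpla2 carried most of the adipocyte difference, with means of 6205 in diabetic and 2181 in normal muscle, while Fabp4 had 5810.0 in diabetic and 5230.0 in normal muscle and Cfd had 1352 in diabetic and 1616 in normal muscle, with overlapping groups. Of 9 macrophage, 5 mesothelial and 4 Schwann cell markers tested, 0 passed in each case. Fibre markers gave 4 lower of 18, Myh4, Pvalb, Myoz1 and Mb (2 to 3 on dropping single arrays), and their summed signal was 268552 to 371382 in diabetic and 328256 to 382767 in normal rats. The part of these cell types in the fall of Mmp2 was not tested.

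Genes whose log2 signal followed each member most closely over the 6 arrays were named among 7079 other tested genes. With so few arrays many genes correlate highly by their number alone, and r exceeded 0.9 for 366 genes with Mmp2, 106 with Mmp14, 29 with Timp1, 110 with Timp2 and 106 with Timp3. Closest to Mmp2 were Fermt2 (r = 0.999), Thap4 (r = 0.997) and Gpd1 (r = 0.996), of which Thap4 (log2 difference -0.59, adjusted p = 0.043 from limma) and Gpd1 (-1.87, adjusted p = 0.0019) also fell while Fermt2 had -0.13 and did not pass. Zfp445, Slc17a5 and Slc8a3 were closest to Mmp14 (r = 0.983, 0.98 and 0.98), and Jarid2, Smoc1 and 6430548M08Rikl to Timp1 (r = 0.991, 0.987 and 0.985). For Timp2 they were Vasp, Nme3 and Rbm45 (r = 0.989, 0.986 and 0.986), and for Timp3 Ptprr, Ybx3 and Myc (r = 0.995, 0.985 and 0.978). Correlations of deviations from the group means were 0.96 to 1.0 for these genes. Because the genes were chosen by r over the same 6 arrays, these values are no separate evidence of a link.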

How the data were processed

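Expression was measured in total RNA of 6 diaphragms, 1 array per rat. The authors deposited MAS 5.0 signal intensity values on a linear scale, scaled per array with MAS 5.0. The scaling target was not found in the labels or methods, but the trimmed mean signal was 500 on all 6 arrays. Signals under 1 were set to 1 and log2 was taken. After 57 control probe sets were removed, those brighter on average than the 40th percentile were kept, and these 9519 were fitted in limma 3.58.1 (R 4.3.3; lmFit, eBayes with trend). The 6 arrays leave 4 residual degrees of freedom, which limits precision. Of the non-control probe sets, 12783 had 1 gene in the platform annotation, 312 several and 2771 none. A gene was represented by its brightest probe set, and folds are ratios of group mean signals. The code was tested on simulated data. Named were the members, up to 4 genes per list that passed with the largest log2 differences, up to 2 bright genes that did not pass (for cell markers those that passed, and Pdgfra and Mfap5, added with values known), and 3 genes most correlated with each member. Ccn2 and Adamts9 were also added with values known. Members and lists were chosen with earlier results of these data known. Alternatives covered normalization, low signals, filter, variance prior, array weights, replicate block, each array left out, probe set choice and threshold.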

Additional observations from a re-analysis of the deposited data

How the results depend on the processing

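Over all probe sets 645 passed (314 higher, 331 lower), against 427 with no filter, 332 with the replicate number as a block, 1147 at an adjusted p under 0.1, 2275 at an unadjusted p under 0.05 and 312 to 434 with each array left out, the lowest without diabetic replicate 3; the count moved by over 1.5 times without any array other than normal replicate 2. Among member probe sets 1 passed, and by limma 0 passed with no trend in the variance prior or with the block, where 3 had an unadjusted p under 0.05 in each case. With array weights or at an adjusted p under 0.1 there were 2, at an unadjusted p under 0.05 there were 4, and with each array left out there were 0 to 1, with 2 to 4 at an unadjusted p under 0.05. The log2 difference of Mmp2 was -0.65 with no trend (adjusted p = 0.059) and with the replicate block (adjusted p = 0.074), -0.74 on its dim second probe set without a filter (adjusted p = 0.27, a setting chosen after seeing the data), and -0.74 to -0.57 with each array left out. Over all settings its adjusted p ranged from 0.026 to 0.27. Timp2 (-0.37) and Timp3 (0.55) passed at an unadjusted p under 0.05, and Mmp14 and Timp1 passed in no setting. With each array left out Mmp14 was 0.20 to 0.42, Timp1 -0.29 to -0.06, Timp2 -0.49 to -0.29 and Timp3 0.44 to 0.74, and the protease minus inhibitor difference was -0.27 to -0.10 against -0.18. The direction of these 6 values, taken from the brightest probe sets, held in all settings run. Dimmer probe sets did not always keep it. The fourth of Timp3 had -0.92 with no filter. The second of Timp2 had 0.18 without normal replicate 3 and 0.21 without diabetic replicate 3. The causes of the lost calls were not tested. Deviations of same-numbered arrays correlated at 0.0977, -0.195 and -0.068, and those of differently numbered arrays at -0.124 to 0.2. Deviations within a group of 3 arrays constrain each other, so these values cannot show whether replicate numbers pair the rats. Dim probe sets were less precise, with a standard error of 0.31 for the second probe set of Mmp2 and 0.41 for that of Timp2, against 0.15 and 0.16 for the brighter ones.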
